A study of Mus musculus with 7 samples.

Results

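Cytosolic ribosomal protein genes were followed across pancreatic islets, which are small clusters of hormone-producing cells, from control mice and from mice lacking the ABC lipid transporter gene Abca12 in their beta cells. Members were chosen by name, as genes called Rpl or Rps followed by a number with at most 1 of the letters a, x, y or l and at most 1 further digit, together with Rpsa, Rplp0, Rplp1 and Rplp2. Genes with -ps in the name were left out, and a level of at least 10 RPM (reads scaled to a common library total) in 2 or more of the 7 libraries was required. Of 34245 listed genes, 83 carried such a name and 80 reached the minimum, 48 of the large subunit (Rpl) and 32 of the small subunit (Rps). They lie on 19 chromosomes.

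Whole islets of 8-week-old C57BL/6J mice were sequenced from polyA-selected RNA with a directional kit, in 2 control and 5 knockout (KO) libraries. In the KO group the floxed Abca12 allele, named Abca12 tm1d once deleted, was removed by Rip1-Cre, a Cre recombinase under a rat insulin promoter. Control 1 carried Rip1-Cre and wild type Abca12, and Control 2 carried Rip1-Cre and 1 floxed allele, so all 7 libraries come from mice that carried the Cre transgene and each control genotype is represented by 1 library. Cre under an insulin promoter acts in beta cells, while whole islets also hold alpha, delta, endothelial and other cells in which the allele is not targeted. In such bulk RNA, fewer cells of a type and less RNA per cell cannot be told apart.

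The libraries hold 23922958 to 43117317 reads as the deposited scale implies, of which 54.6% to 57.0% fell in listed genes. No read of Abca12 was counted in any library of either group (0 in all 7), so its level checks no label. Both insulin genes, glucagon and somatostatin were read in every library. Column headers of KO 1 and KO 2 end in f and those of the other 5 libraries in m, which is read here as sex, so both female libraries are KO. Litter and isolation day are not among the labels. The p-values therefore set the difference between KO and control only against the scatter within the groups of these libraries. The 2 controls of different genotype are taken there as replicates.

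Ribosomal proteins are assembled with ribosomal RNA into the small subunit, which reads the messenger RNA, and the large subunit, which joins amino acids. Their messenger RNAs are short, abundant and known as TOP mRNAs, because they begin with a C followed by a tract of C and U at the extreme 5′ end. That tract lets the cell switch their translation on and off together through mTOR and the binding protein LARP1. Beta cells use many ribosomes, since insulin is made in large amounts.

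To look for such a start, 30-base windows around the annotated transcription start (10 bases before it and 20 from it on) were read from RefSeq promoters of GRCm38.p6, which held an entry for 60 of the 80 members. Windows are shown, at each annotated start, for the members with the smallest p, the stalk, members with known other roles, and 2 pairs of paralogs, as far as they had an entry. Capitals mark the longest run of C and T of at least 6 bases that begins with C on the transcribed strand, and a window all in lower case holds none.
Rps6 (chr4:86857348-86857377, minus strand): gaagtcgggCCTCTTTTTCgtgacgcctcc
Rpl9 (chr5:65391412-65391441, minus strand): gggccctgacggattacaagaacgtgatga
Rpl35a (chr16:33056443-33056472, plus strand): gcgtgcgtcccacaaggccgcgcggcgggg
Rpl35a (chr16:33056472-33056501, plus strand): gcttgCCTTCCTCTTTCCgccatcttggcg
Rpl35a (chr16:33056504-33056533, plus strand): tgtggaggtgaggggggttcctgctgctga
Rps13 (chr7:116334171-116334200, minus strand): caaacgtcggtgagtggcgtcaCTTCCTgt
Rplp0 (chr5:115559457-115559486, plus strand): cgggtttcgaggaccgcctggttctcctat
Rplp2 (chr7:141447641-141447670, plus strand): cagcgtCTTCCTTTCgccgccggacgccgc
Rpl5 (chr5:107900518-107900547, plus strand): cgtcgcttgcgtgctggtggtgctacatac
Rpl11 (chr4:136053374-136053403, minus strand): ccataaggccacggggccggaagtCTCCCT
Rpsa (chr9:120127756-120127785, plus strand): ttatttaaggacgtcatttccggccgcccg
Rps3 (chr7:99483690-99483719, minus strand): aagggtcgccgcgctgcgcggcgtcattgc
Rpl22 (chr4:152324426-152324455, plus strand): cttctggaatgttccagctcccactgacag
Rpl22 (chr4:152325716-152325745, plus strand): cctgggaaaagcaatagctggccgatcgtt
Rpl22l1 (chr3:28805498-28805527, plus strand): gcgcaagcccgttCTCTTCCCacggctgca
Rps27 (chr3:90213629-90213658, minus strand): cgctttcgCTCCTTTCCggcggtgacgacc
Rps27l (chr9:66946076-66946105, plus strand): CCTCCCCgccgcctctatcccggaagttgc
Rps27l (chr9:66946403-66946432, plus strand): gggcttcagggtcactaacgggcctcgcag

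Among these 14 members, 8 had a run in at least 1 window and 6 had none. Of the 24 members described by name that had an entry, 10 had a run and 14 had none. Over all members a run was found at 35 of 60 (58.3%), against 6735 of 27025 genes with an entry (24.9%). A run counted anywhere in the window, so these are not shares of genes with a TOP start. The marked run began at base 15 from the annotated start for Rpl11 and at base 13 for Rps13. For Rps27l it lay wholly before the start. The median log2 fold change between KO and control was 0.18 for the 35 members with a run and 0.18 for the 25 without. The transcribed strand alone was searched, because the tract is a feature of the messenger RNA. RefSeq may place a start some bases away from the one cells use, so a window without a run says only that these letters are not in these 30 bases.

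Members ranged from 37.6 to 493 RPM in their mean over the 7 libraries, with a median of 125 RPM. Each was read deeply, with at least 798 reads in every library. Scaled to the length of the messenger RNA, the highest level was that of Rpl41, the smallest ribosomal protein, at 1069 RPM per kb. Next came the stalk proteins Rplp1 (470 RPM per kb) and Rplp0 (363), and then the small subunit genes Rps28 (333) and Rps29 (317). The lowest were Rps20 (30.2 RPM per kb), Rpl7l1 (33.5), Rpl21 (63.3), Rpl22l1 (74.6) and Rpl36a (77.8). These lengths are of the shortest annotated coding transcript, which for Rps20 was 3706 bases long. The order depends on that choice. Over the union of all annotated exons the highest were Rplp1 (470 RPM per kb of exon), Rpl41 (399.9), Rplp0 (297), Rps3a1 (240.1) and Rpl4 (238), and the lowest Rpl7l1 (12.5), Rps15a (12.9), Rpl35a (13.2), Rpl21 (16.7) and Rpl22 (16.9).

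By RPM the 3 members nearest the minimum were Rpl36a (mean 37.6 RPM), Rpl22l1 (41.2 RPM) and Rpl7l1 (43.9 RPM). Outside it stood 3 paralogs known from other tissues. Rpl3l, the form of striated muscle, had 0 to 2 reads per library. Rpl39l and Rpl10l, forms known from the testis, had at most 1 read and 0 reads in any library.

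All 80 members stood higher on average in KO than in control islets, by a small and similar amount. The median log2 fold change was 0.19, which is 1.14-fold, and the values ran from 0.04 for Rpl35 to 0.32 for Rpl22l1. By limma on log2(RPM + 1) with Benjamini-Hochberg adjustment over 16212 genes, 0 members passed an adjusted p of 0.05. Over all genes tested 7 (0.0432%) passed as higher and 3 (0.0185%) as lower. The smallest adjusted p among the members was 0.210 (Rps27a) and the largest 0.921 (Rpl35).

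A log2 fold change above 0 was seen for 48.3% of all genes tested and for 49.7% of the 8531 genes that meet the same minimum of 10 RPM in 2 libraries. The median over all genes tested was -0.01. At an unadjusted p under 0.05, 39 members were higher and 0 lower, beside 4.64% and 6.16% of all genes, and 5.65% of genes at the same minimum were higher. The members share libraries, so their counts are not independent of one another.

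**Figure D1:**
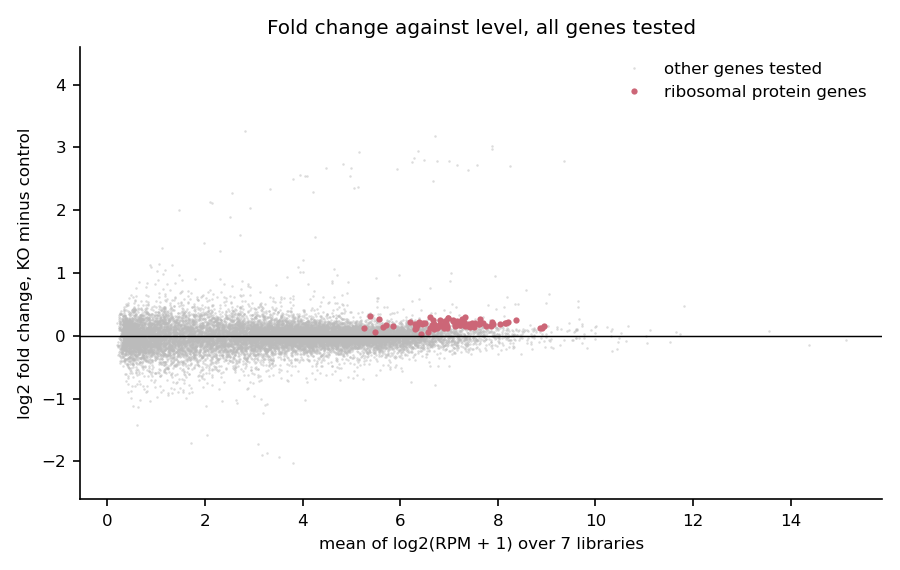
Each point is 1 of 16212 genes tested, with its mean log2(RPM + 1) over 7 libraries on the x axis and its log2 fold change, KO minus control, on the y axis. The 80 ribosomal protein genes, in red, lie between 0.04 and 0.32, all above the zero line.

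The groups did not overlap for 30 members, in each of which the 5 KO libraries lay above both controls, and no member lay below both controls in every KO library. Over all genes tested the groups did not overlap for 6.75% as higher and 8.41% as lower, and 7.96% of genes at the same minimum were higher without overlap. All 80 members were above both controls in KO 5, 77 in KO 4, 70 in KO 1, 62 in KO 2 and 37 in KO 3. Relative to the control mean, members shifted by a median of 0.32 in KO 5, 0.22 in KO 1, 0.19 in KO 4, 0.13 in KO 2 and 0.06 in KO 3. Control 1 and Control 2 stood at -0.03 and 0.03, and Control 1 was the lower of them for 59 members. KO 3 thus stood close to Control 2, and the count of 30 became 58 without KO 3, 59 without Control 2 and 67 without KO 2 and KO 3. Leaving out libraries can only keep or raise such a count, for any genes. The share over all genes is not given for these smaller sets.

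**Figure D2:**
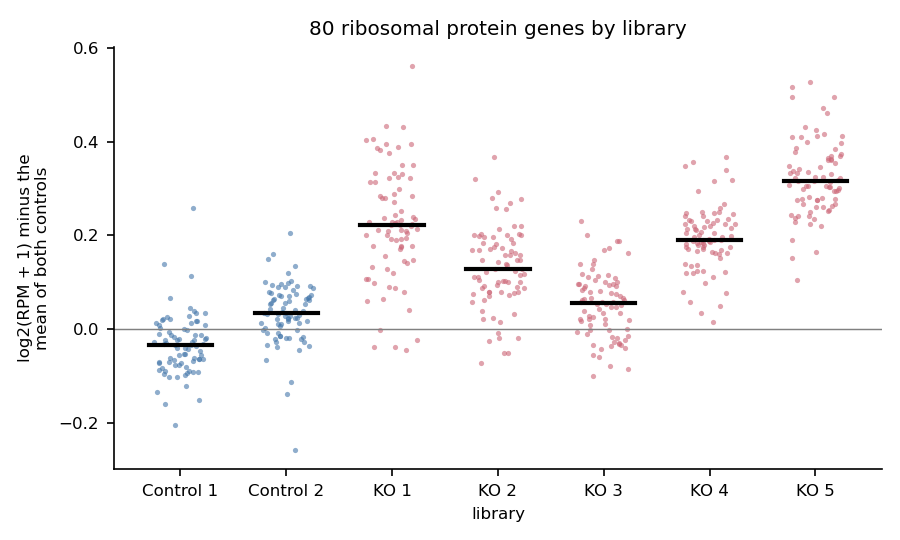
Each point is 1 of 80 ribosomal protein genes in 1 library, as log2(RPM + 1) minus the mean of both controls for that gene, and the black lines are medians. The medians run from 0.06 in KO 3 to 0.32 in KO 5, against -0.03 and 0.03 in the controls.

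Members took 1.92% and 2.05% of the reads in listed genes in Control 1 and Control 2. In KO 1 to KO 5 their share was 2.30%, 2.14%, 2.08%, 2.23% and 2.39%. Every KO library was above both controls, with KO 3 closest to them. The mean share was 1.98% ± 0.0946 (SD, n = 2) in control and 2.23% ± 0.123 (SD, n = 5) in KO, a ratio of 1.12. The difference of 0.246 percentage points was 0.294 when insulin, glucagon and acinar genes were taken out of the denominator, and 0.153 when all reads of the library were the denominator. These differences are not on the same scale, since the denominators differ in size. With all reads as the denominator the ratio of KO to control was 1.14.

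Genes of both subunits were higher on average in KO. The median log2 fold change was 0.18 for the 48 large subunit genes and 0.19 for the 32 small subunit genes, with 19 and 11 of them above both controls in every KO library. Their reads as a share of listed-gene reads were 11.6% higher in KO for the large subunit and 13.7% higher for the small subunit, and the difference between the subunits was not tested. Reads of large subunit genes outnumbered those of small subunit genes 1.591-fold and 1.602-fold in the controls and 1.547-fold, 1.549-fold, 1.591-fold, 1.583-fold and 1.565-fold in KO 1 to KO 5. KO 3 fell within the control range and the other 4 KO libraries below it.

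Among small subunit genes, Rps27a encodes ribosomal protein S27a fused to ubiquitin. It stood at 111 and 108 RPM in Control 1 and Control 2 and at 143, 126, 125, 128 and 146 RPM in KO 1 to KO 5. All 5 KO libraries lay above both controls, with a log2 fold change of 0.28 (SE 0.08) and the smallest unadjusted p of the members (0.00353, limma). On chromosome 11 (29545846 to 29548109, minus strand, GRCm38) it overlaps Clhc1 on the opposite strand, and the strand setting of the counting is not given, so its reads may include those of Clhc1.

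Rps6 encodes the S6 protein that S6 kinases phosphorylate downstream of mTOR. Its levels were 171 and 175 RPM in the controls and 217, 210.04, 185, 206 and 224 RPM in KO 1 to KO 5. The groups were apart, with KO 3 nearest to the controls and a log2 fold change of 0.26 (SE 0.08, adjusted p = 0.239 by limma). Rps13, a protein of the small subunit, stood at 78.6 and 88.4 RPM and at 97.3, 95.4, 96.0, 108 and 119.8 RPM. It had a log2 fold change of 0.30 (SE 0.09, adjusted p = 0.260 by limma), again with no overlap.

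Rpsa, also known as the laminin receptor precursor, was measured at 278 and 304 RPM in the controls and at 358, 325, 321, 357 and 370.4 RPM in KO 1 to KO 5. It lay above both controls in 5 of 5 KO libraries (log2 fold change 0.25, SE 0.08). Rps3, which lies where messenger RNA enters the ribosome, stood at 223 and 212 RPM and at 278, 247, 220.4, 237 and 259 RPM. KO 3 lay between the controls there. Rps4x, 1 of 4 members on the X chromosome, stood at 181 and 190.2 RPM and at 224, 213, 194, 211 and 229 RPM, without overlap. The 2 female libraries KO 1 and KO 2 lay within the range of the male KO libraries for Rps4x. The 4 X-linked members, with Rpl10, Rpl36a and Rpl39 as the others, had a median log2 fold change of 0.14.

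Large subunit genes included Rpl9, with 106 and 112 RPM in the controls and 143, 125, 119, 129 and 145 RPM in KO 1 to KO 5 (log2 fold change 0.28, SE 0.08, adjusted p = 0.244 by limma). Rpl32 stood at 134 and 145 RPM and at 161, 157, 158, 169 and 175 RPM. Rpl35a, a gene mutated in some human patients with Diamond-Blackfan anaemia, stood at 40.8 and 40.0 RPM and at 51.1, 48.5, 43.5, 47.6 and 53.9 RPM. In these 3 genes every KO library was above both controls.

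Rpl5 and Rpl11 bind 5S ribosomal RNA and, when free of ribosomes, the p53 regulator Mdm2. Rpl5 had 172 and 179 RPM in the controls and 209.5, 196, 188, 195 and 219 RPM in KO 1 to KO 5. Rpl11 had 143 and 139.6 RPM in the controls and 176, 162, 147, 154 and 177 RPM. Both were above the controls in each KO library, with log2 fold changes of 0.20 (SE 0.07) and 0.20 (SE 0.08). Rpl3, a protein near the peptidyl transferase centre, was at 255 and 259.7 RPM and at 314, 285, 285, 299 and 307 RPM (log2 fold change 0.21, SE 0.07). Rpl10, which joins the large subunit late in its assembly, stood at 214 and 211 RPM and at 229, 245, 211 and 251 RPM in KO 1 to KO 4, with 255 RPM in KO 5. For Rpl10 the KO 3 value lay between the controls.

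Rplp0, Rplp1 and Rplp2 form the stalk that recruits elongation factors. Rplp0 stood at 435 and 474 RPM in the controls and at 511, 464, 492, 522 and 551 RPM in KO 1 to KO 5, so that KO 2 lay below Control 2 (log2 fold change 0.16, SE 0.08, adjusted p = 0.529 by limma). Rplp1 was measured at 202 and 218 RPM and at 245, 229.5, 227, 249 and 270.4 RPM. Rplp2 was measured at 97.2 and 98.8 RPM and at 133, 114, 102, 113 and 124 RPM. The 2 smaller stalk genes did not overlap between groups, while Rplp0 did.

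**Figure D3:**
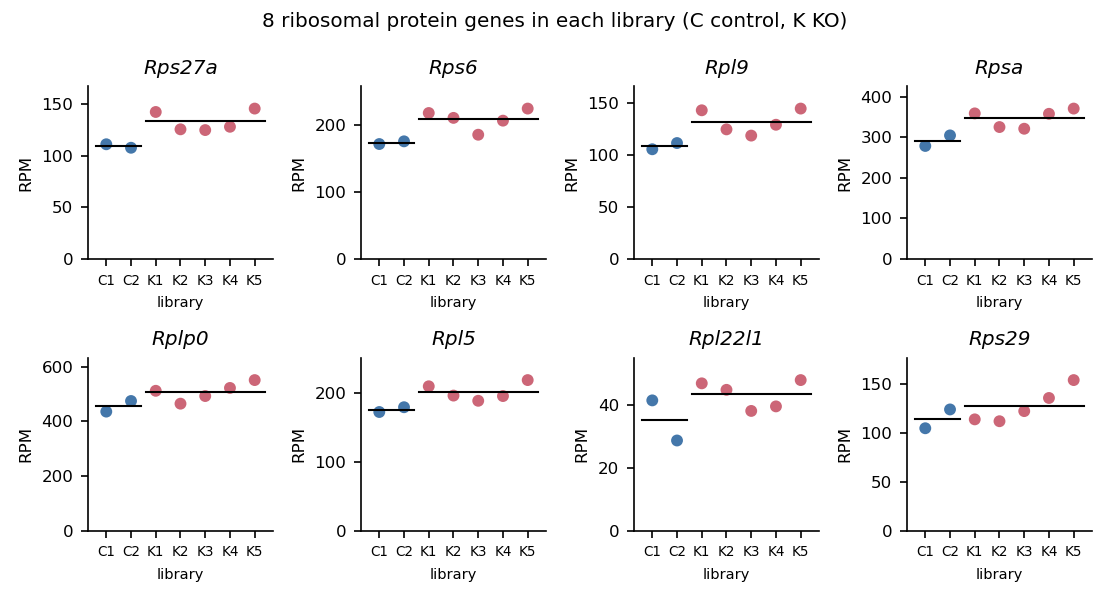
Points give RPM on a linear axis from 0 in each library, controls (C1, C2) in blue and KO (K1 to K5) in red, and black lines give group means. Rps27a, Rps6, Rpl9, Rpsa and Rpl5 are above both controls in each KO library, while Rplp0, Rpl22l1 and Rps29 overlap.

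Paralogs of a few members are also expressed in islets. Rpl22 restrains its paralog Rpl22l1 in mouse cells. Rpl22 stood at 44.5 and 47.1 RPM in the controls and at 55.9, 48.4, 45.2, 50.4 and 53.8 RPM in KO 1 to KO 5. Rpl22l1 stood at 41.6 RPM in Control 1 but 28.8 RPM in Control 2, and at 47.0, 45.0, 38.2, 39.7 and 48.1 RPM in KO 1 to KO 5. Its log2 fold change of 0.32 (SE 0.13) was the largest of the members. It was 0.06 without Control 2 and 0.58 without Control 1. Control 2 also gave the lowest value of Rps14, at 126 RPM against 148 RPM in Control 1 and 143 to 203 RPM in the KO libraries. Rpl22l1 varied most among the members in its share of member reads, with a coefficient of variation of 13.1% over 7 libraries against a median of 4.33%.

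Rps27 and its paralog Rps27l, which p53 induces in human cells, differed in how the libraries ordered. Rps27l stood at 47.2 and 46.7 RPM in the controls and at 50.02, 54.1, 50.3, 53.3 and 58.4 RPM in KO 1 to KO 5, with no overlap. Rps27 stood at 65.3 and 80.7 RPM and at 74.8, 76.7, 76.1, 90.7 and 101 RPM, with Control 2 above KO 1, KO 2 and KO 3. Rpl7l1, a relative of Rpl7, had 43.9 and 41.3 RPM and 44.4, 44.7, 40.8, 46.0 and 45.8 RPM, and its log2 fold change of 0.06 (SE 0.07) was among the 3 smallest. Rpl7 itself was at 166 and 189 RPM and at 204, 187, 198, 202 and 215 RPM (log2 fold change 0.18, SE 0.08).

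Members were not in fixed proportion across libraries, and their coding length moved with the departures, a pattern noticed in these values and given without a test. The 20 members with the shortest coding sequences (75 to 366 bases) had 0.467 and 0.495 times the RPM of the 20 with the longest (624 to 1257 bases) in the controls, and 0.447, 0.459, 0.473, 0.489 and 0.524 times in KO 1 to KO 5. KO 1 was lowest and KO 5 highest, with both controls between them. Across the 80 genes, Spearman's rho between coding length and a gene's departure from its 7-library mean, centred on the library's median, was 0.40 in KO 1 and -0.65 in KO 5. These points share 1 library each, and rho was 0.12 and -0.24 in Control 1 and Control 2, 0.24 in KO 2, 0.03 in KO 3 and -0.14 in KO 4.

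A further 3 members, named for their level over exons, lay close to the controls in 1 KO library each. Rpl4 stood at 431 and 468 RPM in the controls and at 508, 461, 475, 489.9 and 504 RPM in KO 1 to KO 5. Rps3a1 stood at 218 and 208 RPM and at 278, 240.3, 216, 225 and 257 RPM. Rps15a stood at 71.9 and 76.7 RPM and at 84.1, 79.1, 75.3, 83.7 and 97.3 RPM. KO 2 for Rpl4, and KO 3 for Rps3a1 and Rps15a, lay under the higher control.

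Rps29, whose protein is among the smallest, shows the length pattern. It stood at 105 and 124 RPM in the controls and at 114, 112, 122, 136 and 154 RPM in KO 1 to KO 5, so that Control 2 exceeded KO 1, KO 2 and KO 3. Rpl39, which lines the exit tunnel, stood at 73.9 and 74.1 RPM and at 72.0, 78.2, 75.8, 79.3 and 94.9 RPM. KO 1 lay below both controls and KO 5 above every other library. The median log2 fold change was 0.19 in the 20 shortest and 0.19 in the 20 longest.

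**Figure D4:**
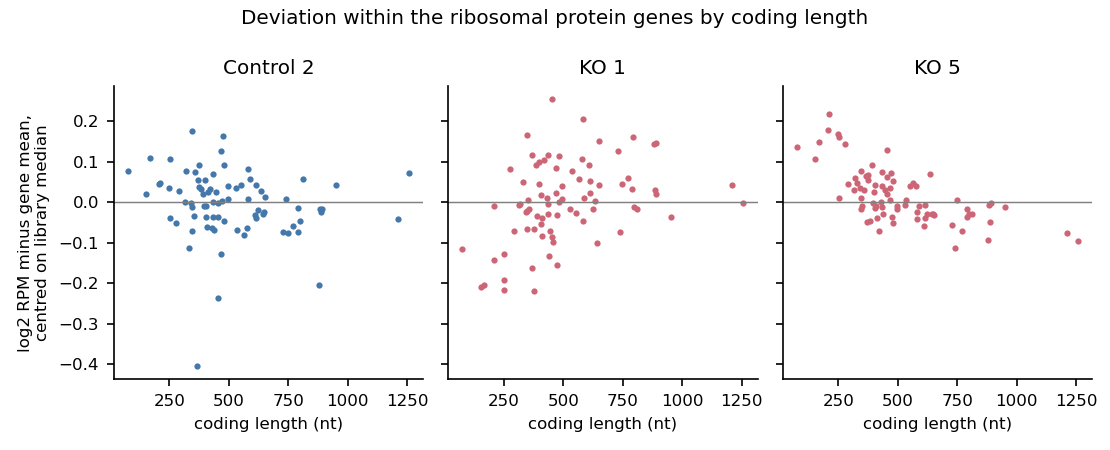
Each point is 1 of 80 ribosomal protein genes, with coding length in bases on the x axis and, on the y axis, log2 RPM minus the gene's mean over 7 libraries, centred on the library's median. Short genes lie low in KO 1 (rho 0.40) and high in KO 5 (rho -0.65), with Control 2 between them (rho -0.24).

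Many ribosomal protein genes have near-identical processed pseudogenes, and how reads that match several places were counted is not given. GENCODE M21 holds at least 1 pseudogene named after the member, with -ps added, for 60 members. Pseudogenes under other names were not counted, so the remaining 20 members may have copies too and do not check how such reads were counted. Those 20 members were higher in 20 of 20 cases, with a median log2 fold change of 0.19 and 6 above both controls in every KO library. Of the members, 24 overlap another listed gene, among them Rpl22l1, Rpl3, Rpl5, Rpl32 and Rpl35a as well as Rps27a. Their reads too may include those of the overlapping gene. The other 56 members had a median of 0.18 with 21 above both controls.

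Summed levels of acinar genes, of endothelial genes and of delta and PP cell genes also stood apart between the groups. The sums of the other cell types overlapped, and no gene of these lists passed the threshold. All 30 acinar genes tested were higher in KO, and 3 of them (Cela3a, Try10 and Prss1) had 0 reads in at least 1 control. They had a summed level of 502 to 1007 RPM in the controls and 2081 to 13006 RPM in KO. KO 2 and KO 3 held the most acinar RNA (12677 and 13006 RPM) and the lowest ribosomal protein shares of the 5 KO libraries. The members also shifted least from the control mean in KO 2 and KO 3 (median 0.13 and 0.06), so leaving these libraries out raises the median in any case. Without KO 2 and KO 3 the median log2 fold change of the members was 0.25, with 80 of 80 above 0. Fitted together with an acinar score it was 0.36, and that score was itself higher in every KO library than in both controls. All 8 endothelial genes tested were lower, with summed levels of 156 and 183 RPM in the controls and 96.5 to 141 RPM in KO. The 7 stellate and fibroblast genes tested were lower on average too, with sums of 37.7 and 127 RPM in the controls and 26.8 to 38.8 RPM in KO. Control 1 lay within the KO range there. Alpha cell genes summed to 3050.3 and 3197 RPM in the controls and 2464 to 7136 RPM in KO, with 6 of 6 higher on average. Delta and PP cell genes were higher in 5 of 5 cases (median log2 fold change 0.55), with sums of 1586 and 1298 RPM in the controls and 1718 to 2672 RPM in KO, without overlap. Duct genes were higher in 10 of 13 cases (median 0.28), at 2418 and 2447 RPM in the controls and 2105 to 2849 RPM in KO. Most of that sum was Spp1, at 1465 and 1445 RPM in the controls, which was lower on average in KO (log2 fold change -0.25). The duct keratin gene Krt8 had an adjusted p of 0.0541 by limma. In the same way the alpha cell sum was mostly Gcg, and the beta cell sum mostly Ins1, Ins2 and Iapp. Beta cell genes were lower in 8 of 10 cases (median -0.11), with sums of 70004 and 77096 RPM in the controls and 59671 to 88163 RPM in KO. Leukocyte genes were lower in 4 of 6 cases, at 26.5 and 74.5 RPM in the controls and 22.7 to 34.0 RPM in KO. Insulin genes took 10.04% and 11.7% of listed-gene reads in the controls and 8.31% to 12.6% in KO. The part of these cell types in the ribosomal protein result was not tested.

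In male libraries alone (2 control and 3 KO) the median log2 fold change of the members was 0.19, 80 of 80 were above 0, and 37 lay above both controls in every KO library. That last count can only stay or rise with fewer libraries, and the share over all genes is not given for it. With no female control, sex and genotype cannot be told apart for KO 1 and KO 2.

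Genes that serve the ribosome were compared from lists, and 0 of their members passed in either direction. Over all genes tested the median was -0.01, and 6.75% of genes were above both controls in every KO library (7.96% of genes at the minimum of 10 RPM), beside which the counts of each list stand. The 4 genes of ribosomal or ribosome-bound proteins outside the name rule were all higher on average (median 0.14), with 0 above both controls in every KO library. Rack1, a scaffold on the small subunit, stood at 230.2 and 250.4 RPM in the controls and at 291, 249, 255, 280.2 and 280.4 RPM in KO 1 to KO 5. KO 2 lay below Control 2 there.

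Ribosome biogenesis factors were higher in 41 of 45 cases, with a median log2 fold change of 0.11 and 10 above both controls in every KO library, against 6.75% of all genes. Nop56, a core protein of the particles that methylate ribosomal RNA, stood at 33.4 and 34.5 RPM in the controls and at 46.4, 43.9, 42.4, 44.2 and 41.7 RPM in KO 1 to KO 5. The groups were well apart, and its log2 fold change of 0.36 (SE 0.07) had an adjusted p of 0.0860 by limma, which misses the threshold. Nop2, a methyltransferase of the nucleolus, stood at 15.7 and 14.5 RPM and at 18.04, 18.1, 18.1, 21.2 and 18.6 RPM. RNA polymerase I genes were higher in 11 of 13 cases (median 0.14) with 1 above both controls, and Polr1e stood at 4.87 ± 0.320 (SD, n = 2) in control and 6.39 ± 1.19 (SD, n = 5) RPM in KO. Twistnb, another of its subunits, stood at 8.07 ± 0.651 and 9.50 ± 0.864 RPM, again with overlap.

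Translation initiation genes were higher in 24 of 26 cases (median 0.12), with 11 above both controls in every KO library, against 6.75% of all genes. Eif3k, a subunit of the initiation factor eIF3, stood at 35.5 and 38.8 RPM and at 43.6, 41.8, 40.8, 43.7 and 45.5 RPM. Eif4ebp1, a brake on cap-dependent translation, stood at 31.4 and 31.1 RPM and at 35.2, 43.2, 33.1, 37.1 and 40.2 RPM. Elongation factors and other TOP mRNAs were higher in 17 of 19 cases (median 0.07), with 3 above both controls. Eef1d, of the exchange factor complex, stood at 51.8 ± 5.06 and 59.8 ± 4.48 RPM, and Eef1g at 254 ± 12.6 and 279.9 ± 9.46 RPM.

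The remaining lists had medians from -0.04 to 0.11. Mitochondrial ribosome genes were higher in 55 of 77 cases (median 0.06), and they took 0.212% and 0.215% of listed-gene reads in the controls and 0.208% to 0.235% in KO. Mrps30 stood at 11.4 ± 0.732 and 13.9 ± 1.30 RPM and Mrpl33 at 14.8 ± 0.268 and 18.2 ± 2.43 RPM. Hosts of small nucleolar RNAs were higher in 15 of 18 cases (median 0.11). This list is not separate from those above, since Rack1, Eif4a1, Eif4a2 and Tpt1 are counted there too, and Snhg14 is entered more than once. Snhg17 stood at 7.49 ± 0.702 and 9.45 ± 0.592 RPM, and an entry of Snhg14 was lower, at 9.79 ± 0.726 and 8.06 ± 0.496 RPM. Growth control genes of the mTOR and Myc pathways were lower in 16 of 24 cases (median -0.04), with the mTOR inhibitor gene Tsc1 at 45.3 ± 2.24 and 39.8 ± 2.07 RPM and Akt1s1, an mTORC1 inhibitor, at 41.0 ± 1.79 and 46.2 ± 3.55 RPM. Genes of the p53 pathway split 9 higher and 8 lower (median 0.01), with Sesn2, a stress-induced inhibitor of mTORC1, at 75.4 ± 2.34 and 62.7 ± 3.08 RPM (adjusted p = 0.173 by limma) and Trp53inp1 at 36.1 ± 0.860 and 28.6 ± 3.38 RPM.

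**Figure D5:**
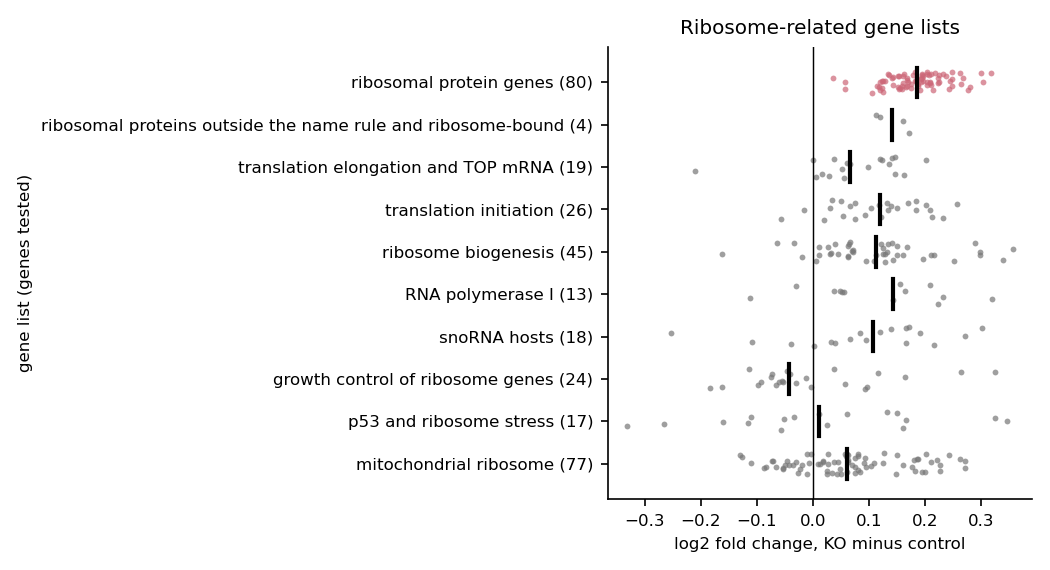
Points are genes tested, placed by log2 fold change (KO minus control) on the x axis and by list on the y axis with the number tested in brackets, and black bars are medians. The 80 ribosomal protein genes, in red, have a median of 0.19, and the related lists have medians from -0.04 to 0.14.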

How the data were processed

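Whole-islet RNA was sequenced in 2 control and 5 KO libraries, with groups taken from the labels. HISAT2, DESeq2 and GRCm38 appear in the submitters' processing notes, without version, role or order. The sources used here do not say how reads were counted, on which strand or with which annotation. The authors deposited log2 values, which are log2 of RPM. Converted back to RPM, values under 200 reads came out as whole reads within 0.02, with 0.9 of 1 read standing for no reads. A second table deposited by the authors gives a fold (ratio) and a corrected p-value for 136 selected genes, of which 0 are members.

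Genes entered the test with at least 10 reads at the median depth (0.366 RPM) in 2 or more libraries. KO and control were compared with limma 3.58.1 (R 4.3.3, intensity trend, two-sided) on log2(RPM + 1), with Benjamini-Hochberg adjustment over 16212 genes. A fold change on this scale understates that of low genes. No score over the members was tested. Lengths came from GENCODE M21 (GRCm38), whose positions matched 71 of the 80 members exactly. Level per kb used the shortest coding transcript with the principal coding length, a measure chosen after values by longer transcripts and by the exon union had been seen. Named genes were Rplp0, the 6 members with the smallest p in each direction, the 5 highest and lowest per kb by transcript and by exon union (the rule says only annotated exons), paralogs, a set of members with known other roles, and the 2 genes with the smallest p of each related list. Rpl35, Rps14, Krt8 and Spp1 were named, and the set of start windows chosen, after their values were seen. One gene that the rule names is not reported here. The members and lists were chosen with earlier results of these data known. The fit was tested on simulated data.

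Alternatives covered scaling, pseudocount, filter, voom, robust empirical Bayes, covariates, the replicate block and left-out libraries. Each member had at least 798 reads per library.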

Additional observations from a re-analysis of the deposited data

How the results depend on the processing

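Across the 21 alternatives 0 members passed the threshold in any fit. The median log2 fold change of the members was 0.14 to 0.23 with 1 library left out and 0.36 with an acinar covariate. The other alternatives moved it by less than the spread between KO libraries. The median shift had an SD of 0.0982 between KO libraries, beside a median log2 fold change of 0.19. A move within that spread therefore need not be small. The number of members above 0 was 77 to 80 with 1 library left out. The number above both controls in every KO library was 49 with median-of-ratios scaling, 67 without KO 2 and KO 3, and 30 to 59 with 1 library left out. The share over all genes is not given for these settings, and leaving out libraries can only keep or raise the number. The difference in share of reads ran from 0.180 to 0.313 percentage points with 1 library left out. Over all genes the count of 10 past the threshold was 20 with median-of-ratios scaling, 18 with upper-quartile scaling, 4 without a filter, 42 with robust empirical Bayes, 3 with sex as a term and 2 with an acinar covariate, 47 without KO 2 and KO 3, and 2 to 127 with 1 library left out. Leaving out a control sets 1 mouse against 5, and that mouse is assumed to vary like the KO group. The causes of these moves were not tested.

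Of 672 values for 32 named members under these alternatives, 1 changed sign: Rps29 had a log2 fold change of -0.0136 with the replicate block. In that fit KO 3, KO 4 and KO 5 had no control of the same number. Its KO term therefore rests only on KO 1 and KO 2, read here as female, against the male Control 1 and Control 2. On that basis 78 of 80 members were above 0, the median was 0.19 and 11 genes passed over all genes. Deviations of same-numbered control and KO libraries from their group means correlated at -0.0992 and -0.240. With 2 controls the deviations of Control 1 and Control 2 are mirror images of each other. These correlations therefore cannot decide whether replicate numbers pair the libraries.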

Other observations

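Transcripts of the mitochondrial genome, whose proteins are made on mitochondrial ribosomes, made up 1.62% of the reads in listed genes in Control 1 and 1.74% in Control 2. The 5 KO libraries held 1.38%, 1.46%, 1.59%, 1.68% and 1.64%, in the order of their numbers. The groups overlapped. KO 1 and KO 2, the female libraries, had the lowest of the 7 shares.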
